A study of Mus musculus with 12 samples.

Results

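The expression of 10 scavenger, mannose and apoptotic cell receptors was followed in bone marrow-derived macrophages (BMDM) from wild type (wt) mice and from *Treml4-/-* mice. The receptors were taken from the deposited gene table by symbol, and all 10 were found among 43280 genes. They were *Msr1*, *Marco*, *Cd36*, *Scarb1*, *Stab1*, *Olr1*, *Mrc1*, *Cd163*, *Mertk* and *Axl*. BMDM are macrophages grown in a dish from bone marrow with macrophage colony-stimulating factor (M-CSF), and both genotypes had the C57BL6 background. The cells received PBS as vehicle (M0) or lipopolysaccharide (LPS), a component of the outer membrane of Gram-negative bacteria, at 100 ng/ml for 8 h or 12 h (M1-8 h and M1-12 h). Poly(A) RNA was sequenced in 2 biological replicates of each of the 6 conditions, 12 libraries in all. *Treml4* encodes a receptor of the TREM family on myeloid cells, and the labels name no Cre or transgene for its deletion. Whether a replicate was 1 mouse or a pool, and the age of the mice, are not given in the sources used here.

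Scavenger receptors are cell surface proteins that bind modified lipoproteins, bacteria and dying cells, and hand them to the endosome for degradation. In macrophages of the artery wall, uptake of oxidized low density lipoprotein (LDL) through these receptors fills the cells with lipid and turns them into foam cells. The mannose receptor binds glycoproteins with exposed mannose, and is widely used as a marker of alternatively activated (M2) macrophages together with CD163. MERTK and AXL belong to the TAM family of receptor tyrosine kinases, which bind phosphatidylserine on apoptotic cells through the bridging proteins GAS6 and protein S, and which dampen Toll-like receptor signalling.

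The libraries held 48008751 to 58500792 reads on genes, so 1 read was worth 0.0171 to 0.0208 CPM (counts scaled to the library total). *Treml4* was at 3.95 to 13.2 CPM in the 6 wt libraries and at 0 reads in the 6 *Treml4-/-* libraries, which allows up to 0.0625 CPM (3 reads) in the shallowest of them. The LPS response genes *Nos2*, *Il1b*, *Il6* and *Tnf* rose in all 4 comparisons with M0, with a median log2 fold change of 5.83 to 7.59. All 8 macrophage markers examined were present, with a summed level of 20921 to 28144 CPM at M0 and 9894 to 13235 CPM under LPS. Of the other cell types, the T cell markers stayed at 3 reads or fewer. The mast cell sum was 0.115 to 0.786 CPM, from *Kit* (at most 0.667 CPM) and *Cpa3* (at most 0.224 CPM), with *Mcpt4* and *Fcer1a* at 0. Mean *Kit* at M0 was 0.184 CPM in wt and 0.474 CPM in *Treml4-/-* cells. The summed neutrophil markers were at 43.2 to 116 CPM in wt and 109 to 137 CPM in *Treml4-/-* cells at M0, at 67.5 to 71.1 and 79.2 to 103 CPM at 8 h, and at 46.3 to 56.4 and 53.4 to 64.8 CPM at 12 h, with *Ly6g* at 0.131 CPM or less. The B cell sum was between 4.39 and 6.48 CPM at M0, mostly *Cd79b*, and at most 0.686 CPM under LPS, and the stromal sum was at most 2.39 CPM. The endothelial sum was 7.51 to 10.3 CPM at M0, 97.4 to 118 CPM at M1-8 h and 189 to 272 CPM at M1-12 h, mostly *Kdr*, with *Tek* and *Lyve1* at 3 reads or fewer. In wt cells at M0, 8 h and 12 h, mean *Pecam1* was at 0.523, 9.13 and 14.3 CPM and *Cdh5* at 0.397, 1.62 and 2.50 CPM. Mean *Stab2* was at 0.602, 0.0690 and 0.0195 CPM. The dendritic cell sum was at most 1.14 CPM at M0 and 13.7 to 27.2 CPM under LPS, from *Ccr7* and *Xcr1*. The part of these cell types in the receptor values was not tested.

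Changes were tested with limma on log2(CPM + 1), on which genes near 1 CPM show smaller changes than on the CPM scale. A gene was called when its Benjamini-Hochberg adjusted p was under 0.05 and its fold change at least 1.4. The test took in 12086 genes that reached 1 CPM in 2 or more libraries, among them 9 of the 10 receptors. *Cd163* stayed below this limit in every library. The median log2 fold change of all tested genes against M0 was -0.74 (wt) and -0.70 (*Treml4-/-*) at 8 h and -0.77 and -0.74 at 12 h. Scaling by the median of ratios, which sets that median near 0, turned the direction of *Cd36* and *Mrc1* at 8 h, and quantile normalization turned that of *Mrc1* at 8 h, as given with each gene. The direction of the other 7 tested receptors against M0 was the same under library totals, median of ratios and quantile normalization. With 2 replicates per condition the p-values rest on a spread shared over the conditions and moderated across genes.

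Against M0, 8 of the 9 tested receptors were called in wt cells at 8 h, against 76.9% of all tested genes, and 7 were called in *Treml4-/-* cells, against 75.9%. At 12 h, 8 receptors were called in wt cells (76.7% of all genes) and 9 in *Treml4-/-* cells (75.7%). In wt cells 5 receptors rose and 3 fell at 8 h, whereas 16.3% of all genes rose and 60.6% fell. In *Treml4-/-* cells 5 rose and 2 fell at 8 h, against 17.7% and 58.1% of all genes. At 12 h, 4 rose and 4 fell in wt cells, against 16.2% and 60.4% of all genes. In *Treml4-/-* cells 5 rose and 4 fell at 12 h, against 16.1% and 59.6% of all genes. The median log2 fold change over the 9 receptors was 1.26 (wt) and 1.46 (*Treml4-/-*) at 8 h, and 0.41 and 0.59 at 12 h. Under the median of ratios the genome split was nearly even, with 3773 genes higher and 3631 lower at 8 h in wt cells in place of 1971 and 7319, and 5 receptors rose and 2 fell. At 12 h in wt cells that scaling gave 4022 genes higher and 3899 lower in place of 1962 and 7302, with 5 receptors higher and 3 lower. In *Treml4-/-* cells it gave 3796 higher and 3832 lower in place of 2143 and 7025 at 8 h, and 3955 and 3844 in place of 1945 and 7204 at 12 h. Quantile normalization lay between the other scalings, with 3252 genes higher and 4272 lower at 8 h in wt cells. It gave 3420 and 4424 at 8 h in *Treml4-/-* cells, 3558 and 4350 at 12 h in wt cells, and 3584 and 4298 at 12 h in *Treml4-/-* cells. The 8 h and 12 h comparisons of a genotype share their M0 libraries and are not independent of each other. In bulk libraries such as these, fewer cells that express a receptor and less of its RNA per cell cannot be told apart.

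**Figure D1:**
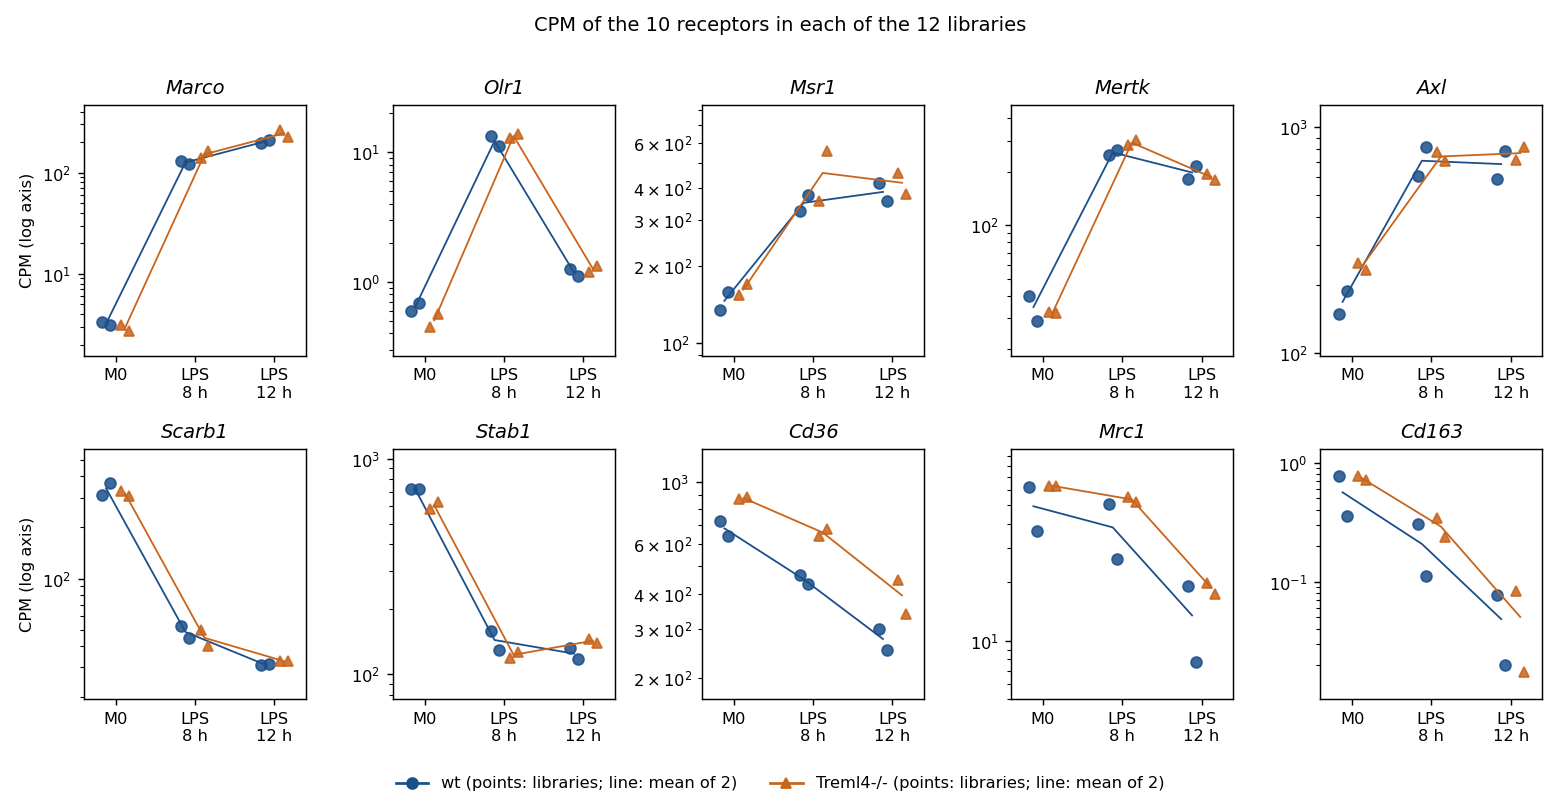
CPM of each of the 10 receptors (log axes, 1 panel per gene) at M0 and after 8 h and 12 h of LPS, with 1 point per library (wt circles, *Treml4-/-* triangles) and lines through the means of 2 libraries. *Marco*, *Msr1*, *Mertk* and *Axl* rise and stay high, *Olr1* peaks at 8 h, *Scarb1* and *Stab1* fall by 8 h, and *Cd36*, *Mrc1* and *Cd163* are lowest at 12 h.

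The class A receptors *Marco* and *Msr1* rose. *Marco* (chromosome 1, 120474538 to 120505024, minus strand, GRCm38), a receptor for bacteria and inhaled particles, was at 3.34 and 3.11 CPM in the wt M0 libraries, 131 and 120.3 CPM at 8 h, and 194 and 211 CPM at 12 h. The *Treml4-/-* libraries were at 3.14 and 2.73 CPM at M0, 138 and 165 CPM at 8 h, and 263 and 224 CPM at 12 h. No LPS library came near an M0 library, and every 12 h library was above every 8 h library of its genotype. The ratio of mean CPM to M0 was 39.1 (wt) and 51.7 (*Treml4-/-*) at 8 h, and 62.9 and 83.1 at 12 h. On the log2(CPM + 1) scale *Marco* rose by 4.91 ± 0.12 (SE) in wt and 5.27 ± 0.12 in *Treml4-/-* cells at 8 h (limma adjusted p = 2.3e-11 and 1.4e-11). *Msr1* (chromosome 8, 39581685 to 39642673, minus strand), the scavenger receptor A that takes up acetylated and oxidized LDL, was at 134 and 157 CPM in wt cells at M0, 326 and 375 CPM at 8 h, and 417 and 356 CPM at 12 h. Without *Treml4* the values were 153 and 169 CPM at M0, 358 and 557 CPM at 8 h, and 457 and 381 CPM at 12 h. The LPS libraries were all above the M0 libraries, while those of 8 h and 12 h overlapped. *Msr1* rose by 1.26 ± 0.18 in wt and 1.46 ± 0.18 in *Treml4-/-* cells at 8 h, and by 1.398 ± 0.18 and 1.37 ± 0.18 at 12 h (limma adjusted p at most 5.5e-05). With median of ratios scaling the rise of *Msr1* was larger, 2.10 and 2.21 at 8 h and 2.27 and 2.19 at 12 h, and that of *Marco* was 5.61 and 5.86 at 8 h and 6.32 and 6.61 at 12 h.

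*Olr1* (chromosome 6, 129485244 to 129507165, minus strand), which encodes the lectin-like oxidized LDL receptor LOX-1, was high at 8 h alone. It was at 0.598 and 0.688 CPM (31 and 35 reads) in the wt M0 libraries, at 13.4 and 11.1 CPM (662 and 600 reads) at 8 h, and at 1.27 and 1.11 CPM (66 and 56 reads) at 12 h. The knockout cells had 0.448 and 0.561 CPM at M0, 12.9 and 13.9 CPM at 8 h, and 1.19 and 1.34 CPM at 12 h. The groups of the 3 time points did not overlap in either genotype, with the 12 h libraries between the other groups. The ratio of mean CPM to M0 was 19.0 (wt) and 26.6 (*Treml4-/-*) at 8 h. From 8 h to 12 h *Olr1* fell by 2.59 in wt and 2.67 in *Treml4-/-* cells on the log2(CPM + 1) scale (SE 0.12 each, limma adjusted p = 3.6e-07 and 3.4e-07). At 12 h the remaining difference from M0 was 0.41 ± 0.12 in wt cells, which did not reach 1.4-fold on this scale, and 0.59 ± 0.12 in *Treml4-/-* cells, which did. With a smaller pseudocount, other scalings or limma voom on the reads, the wt difference also passed, at 0.79 to 0.90.

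The apoptotic cell receptors *Mertk* and *Axl* rose as well. *Mertk* (chromosome 2, 128698956 to 128802894, plus strand), which macrophages use to engulf apoptotic cells, was at 40.1 and 28.9 CPM in wt cells at M0, 249 and 266 CPM at 8 h, and 182 and 215 CPM at 12 h. Levels in *Treml4-/-* cells were 32.2 and 31.8 CPM at M0, 282 and 302 CPM at 8 h, and 193 and 180.5 CPM at 12 h. In both genotypes the 8 h libraries were the highest and the M0 libraries the lowest, with no overlap. *Mertk* rose by 2.88 ± 0.13 in wt and 3.15 ± 0.13 in *Treml4-/-* cells at 8 h (limma adjusted p = 4.4e-09 and 2.3e-09). *Axl* (chromosome 7, 25757273 to 25788705, minus strand), the TAM receptor that responds to inflammatory stimuli in many cells, was at 149 and 189 CPM in wt cells at M0, 606 and 816 CPM at 8 h, and 591 and 783 CPM at 12 h. The *Treml4-/-* libraries were at 249.98 and 233 CPM at M0, 775 and 710.1 CPM at 8 h, and 715 and 821 CPM at 12 h. The 8 h and 12 h libraries overlapped and both lay above M0. *Axl* rose by 2.06 ± 0.17 in wt and 1.62 ± 0.17 in *Treml4-/-* cells at 8 h (limma adjusted p = 4.4e-07 and 3.4e-06). Under the median of ratios the 8 h rise was 3.71 and 3.88 for *Mertk* and 2.90 and 2.37 for *Axl* (wt, *Treml4-/-*).

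*Scarb1* and *Stab1* fell. *Scarb1* (chromosome 5, 125277087 to 125341094, minus strand), the class B receptor SR-BI that exchanges cholesterol with high density lipoprotein, was at 312 and 368 CPM in wt cells at M0, 52.2 and 44.6 CPM at 8 h, and 30.9 and 31.4 CPM at 12 h. Without *Treml4* the values were 328 and 305 CPM at M0, 49.5 and 39.9 CPM at 8 h, and 32.6 and 32.7 CPM at 12 h. The time points did not overlap in either genotype, and the order was M0, 8 h, 12 h from high to low. *Scarb1* fell by 2.78 and fell by 2.80 at 8 h (wt, *Treml4-/-*), a 6.89-fold and 6.98-fold difference, and fell by 3.40 and fell by 3.24 at 12 h, a 10.6-fold and 9.44-fold difference (SE 0.12 each, limma adjusted p at most 2.3e-09). *Stab1* (chromosome 14, 31139013 to 31168641, minus strand), which encodes stabilin-1, a multidomain receptor for acetylated LDL and the matrix protein SPARC, was at 725 and 719 CPM in wt cells at M0, 159 and 129.9 CPM at 8 h, and 132 and 118 CPM at 12 h. The knockout cells had 584 and 630.4 CPM at M0, 119 and 127 CPM at 8 h, and 147 and 140 CPM at 12 h. The LPS libraries were far below M0 in both genotypes. *Stab1* was 5.00-fold lower in wt and 4.90-fold lower in *Treml4-/-* cells at 8 h, and 5.76-fold and 4.21-fold lower at 12 h (limma adjusted p at most 7.6e-09). Both receptors were called lower under median of ratios scaling too, *Scarb1* with log2 fold changes of -1.95 (wt) and -2.06 (*Treml4-/-*) and *Stab1* with -1.48 and -1.54 at 8 h.

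**Figure D2:**
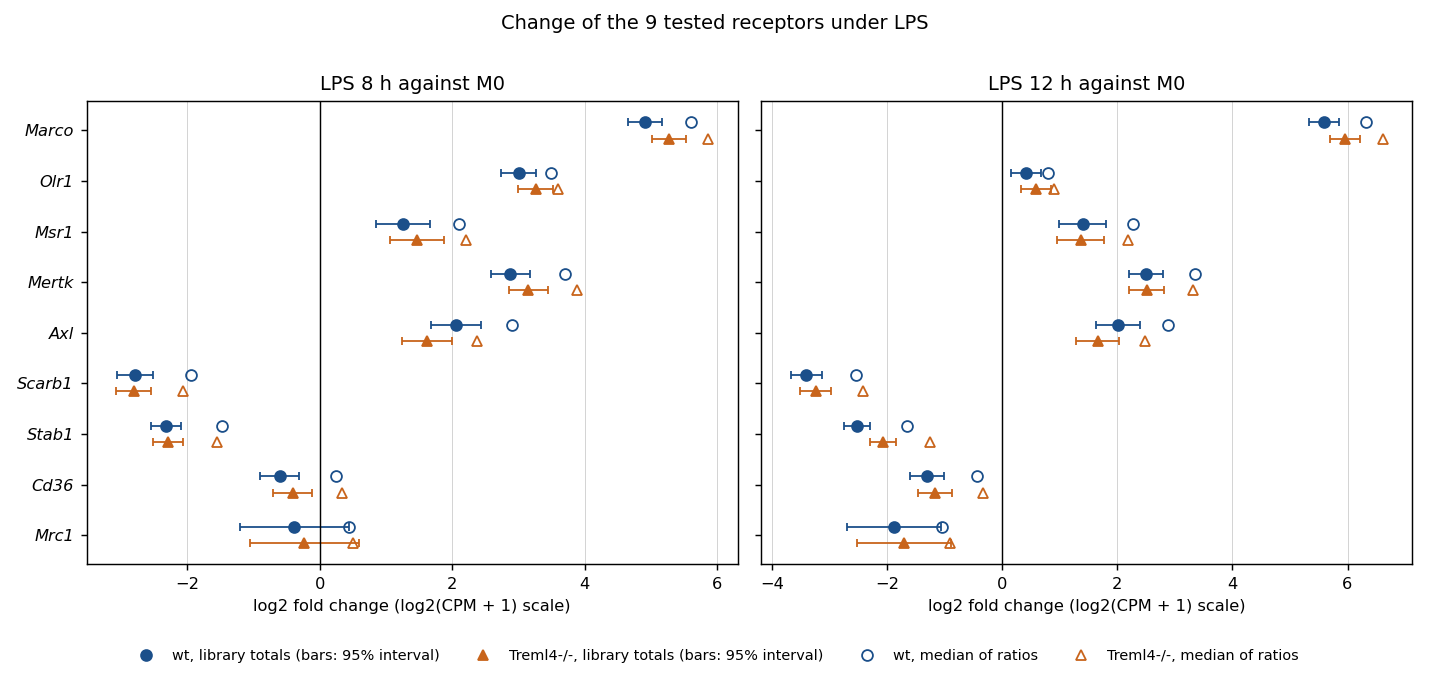
Log2 fold changes (log2(CPM + 1) scale) of the 9 tested receptors after 8 h (left) and 12 h (right) of LPS against M0, for wt (circles) and *Treml4-/-* (triangles) cells, with 95% intervals from limma. Open symbols give the same change under median of ratios scaling, which moves every value upwards and places *Cd36* and *Mrc1* at 8 h on the other side of 0.

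*Cd36* fell at 12 h on the CPM scale, and its change at 8 h depended on the scaling. *Cd36* (chromosome 5, 17781690 to 17888801, minus strand), the class B receptor for oxidized LDL and long-chain fatty acids, was at 727 and 639 CPM in wt cells at M0, 467 and 432 CPM at 8 h, and 300.3 and 251 CPM at 12 h. Levels in *Treml4-/-* cells were 871 and 880.4 CPM at M0, 641 and 679 CPM at 8 h, and 449 and 339 CPM at 12 h. Within each genotype the 3 time points did not overlap. The log2 fold change at 8 h was -0.60 ± 0.13 in wt cells (limma adjusted p = 0.0012) and -0.41 ± 0.13 in *Treml4-/-* cells (adjusted p = 0.013, below 1.4-fold), but 0.24 and 0.34 under the median of ratios and -0.89 and -0.72 after quantile normalization. At 12 h it was -1.31 ± 0.13 and -1.16 ± 0.13 (limma adjusted p = 2.3e-06 and 6.4e-06), and -0.44 and -0.34 under the median of ratios, below the 1.4-fold limit.

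The M2 markers *Mrc1* and *Cd163* were lowest at 12 h. *Mrc1* (chromosome 2, 14229392 to 14332057, plus strand), the mannose receptor CD206, was at 62.0 and 36.8 CPM in wt cells at M0, 50.5 and 26.4 CPM at 8 h, and 19.2 and 7.76 CPM at 12 h. The *Treml4-/-* libraries were at 62.9 and 63.0 CPM at M0, 55.0 and 52.2 CPM at 8 h, and 20.0 and 17.5 CPM at 12 h. Replicate 2 of the wt cells had the lowest *Mrc1* at each time point, so that the wt libraries of M0 and 8 h overlapped while those of 12 h did not overlap with either. At 8 h the log2 fold change was -0.38 ± 0.37 in wt and -0.23 ± 0.37 in *Treml4-/-* cells and was not called (limma adjusted p = 0.35 and 0.57), and it was 0.45 and 0.51 under the median of ratios and 0.14 and 0.16 after quantile normalization. At 12 h *Mrc1* fell by 1.87 in wt cells and fell by 1.70 in *Treml4-/-* cells (SE 0.37 each, limma adjusted p = 0.00057 and 0.0012), and under the median of ratios it remained called, at -1.04 and -0.90. In wt cells the 12 h change of *Mrc1* moved with the M1-12 h replicate left out, to -2.48 without replicate 1 and -1.27 without replicate 2, and was called in both cases. Without the 3 libraries of wt replicate 2, a choice made after seeing the data that leaves 1 wt library per time point, assumed to vary like the *Treml4-/-* pairs, the 12 h values were -1.64 ± 0.12 and -1.70 ± 0.086. *Cd163* (chromosome 6, 124304656 to 124330527, plus strand), the haemoglobin-haptoglobin receptor, had 40 and 18 reads in wt cells at M0 (0.771 and 0.354 CPM), 15 and 6 reads at 8 h and 4 and 1 reads at 12 h. In *Treml4-/-* cells it had 38 and 38 reads at M0, 20 and 13 at 8 h, and 4 and 1 at 12 h. The libraries of M0, 8 h and 12 h did not overlap in either genotype, and wt replicate 2 was again the lowest wt library each time. With no filter on low values, limma voom on the reads gave a log2 fold change of -1.48 (adjusted p = 0.060) in wt and -1.35 (adjusted p = 0.052) in *Treml4-/-* cells at 8 h, and -3.40 (adjusted p = 0.0016) and -3.93 (adjusted p = 0.00045) at 12 h. With so few reads the size of these changes depends on the prior count, and reads of 4 and 1 limit how precisely the 12 h level is known.

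The promoters of the receptors were read from RefSeq (GRCm38.p6), whose table held 8 of the 10, without *Msr1* and *Scarb1*. The 250 bases upstream of the start are shown for *Marco* and *Olr1*, the receptors with the largest rise at 8 h and a start that coincides with an annotated transcript start, and for *Stab1* as a receptor that fell with such a start. Each is written 5′ to 3′ on the strand of the gene and ends at the base before the start, with capitals marking the motif matches listed after the sequences. *Marco* lies on the minus strand at chr1:120505025-120505274, *Olr1* on the minus strand at chr6:129507166-129507415, and *Stab1* on the minus strand at chr14:31168642-31168891.
Marco: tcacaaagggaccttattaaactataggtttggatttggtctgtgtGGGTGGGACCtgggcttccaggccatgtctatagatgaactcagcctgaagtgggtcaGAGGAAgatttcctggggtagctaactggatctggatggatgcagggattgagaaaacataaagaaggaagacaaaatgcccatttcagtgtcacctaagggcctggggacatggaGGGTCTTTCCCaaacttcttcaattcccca
Olr1: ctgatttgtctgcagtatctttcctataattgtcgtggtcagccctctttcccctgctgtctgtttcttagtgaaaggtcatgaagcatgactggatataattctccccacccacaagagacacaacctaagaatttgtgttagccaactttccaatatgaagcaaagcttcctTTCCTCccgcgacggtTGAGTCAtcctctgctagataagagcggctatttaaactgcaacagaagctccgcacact
Stab1: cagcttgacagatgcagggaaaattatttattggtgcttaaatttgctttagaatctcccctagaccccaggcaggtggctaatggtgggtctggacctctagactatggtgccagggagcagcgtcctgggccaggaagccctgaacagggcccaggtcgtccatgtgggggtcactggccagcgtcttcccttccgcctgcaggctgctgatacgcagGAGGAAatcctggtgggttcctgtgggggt
Short motifs of factors that act in macrophages, and of core promoters, were searched on both strands in 32851 promoters of the same length. The kappaB motif of NF-kappaB (3 G, any 5 bases, 2 C) was found in 45.8% of them, and the AP-1 motif TGANTCA in 6.75%. The core letters GAGGAA bound by PU.1, the factor that defines myeloid cells, were found in 23.3%. The IRF motif (a pair of GAAA blocks with any 2 bases between them) was found in 2.98%, and the C/EBP motif TTGCNNAA in 9.56%. The Sp1 motif GGGCGG was found in 32.7%, the TATA motif TATAAA in 12.4% and the E-box CACGTG in 6.02%. The *Marco* promoter held the kappaB motif at 204, 30 and 29 bases before the start, the last 2 of which overlap, and the PU.1 core at 146 bases. The *Olr1* promoter held the AP-1 motif as TGAGTCA at 60 bases before the start and the PU.1 core on the other strand at 76 bases. The *Stab1* promoter held the PU.1 core at 30 bases before the start and none of the other motifs. Of the 8 promoters, 6 held the kappaB motif, *Marco*, *Cd36*, *Mrc1*, *Cd163*, *Mertk* and *Axl*, which include receptors that rose and receptors that fell. Apart from *Marco*, their starts lay off the nearest annotated transcript start, by 179 bases for *Cd36*, 22 for *Mrc1*, 5 for *Cd163*, 41 for *Mertk* and 28 for *Axl*. These matches describe the sequence alone and were not tested against binding.

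Compared per kilobase of the main annotated transcript, *Cd36* was the highest of the receptors at M0, with either transcript length, and *Msr1* was the highest after LPS with the main transcript alone, in both genotypes. In wt cells at M0, *Cd36* was at 214 and 188 CPM per kilobase, *Scarb1* at 124 and 146, *Msr1* at 94.4 and 111, *Stab1* at 90.6 and 89.9, and *Axl* at 34.9 and 44.3. *Mrc1* and *Mertk* followed and did not differ beyond their spread, *Marco* was at 1.73 and 1.61, and *Olr1* and *Cd163* overlapped at 0.193 CPM per kilobase or less. At 8 h *Msr1* (229 and 263) came first in wt cells, followed by *Axl* (142 and 191), *Cd36* (138 and 127), *Marco* (68.3 and 62.5) and *Mertk* (57.8 and 61.7), and in *Treml4-/-* cells *Cd36* (189 and 199.8) stood above *Axl* (182 and 166). *Scarb1* and *Stab1* overlapped at 8 h in both genotypes. At 12 h in wt cells the order was *Msr1* (293 and 249.8), *Axl* (139 and 183), *Marco* (101 and 109.7), *Cd36* (88.3 and 73.8) and *Mertk* (42.3 and 49.9), with no overlap between neighbours. *Stab1* and *Scarb1* were then at 16.5 and 14.7 and at 12.2 and 12.5 CPM per kilobase, and *Mrc1* at 3.58 and 1.44. In *Treml4-/-* cells at 12 h the order was the same, except that *Marco* and *Cd36* overlapped. *Msr1* has a main transcript of 1.424 kb and a longest one of 3.636 kb, and with the longest transcripts of all receptors it was no longer first in any LPS condition. Mean levels at 8 h were then 167 (*Axl*), 132 (*Cd36*) and 96.3 (*Msr1*) CPM per kilobase in wt cells and 194 (*Cd36*), 174 (*Axl*) and 126 (*Msr1*) in *Treml4-/-* cells. At 12 h *Axl* came before *Msr1* in wt cells. In *Treml4-/-* cells at 12 h the means of *Axl*, *Marco* and *Cd36* were above that of *Msr1* (115.2). *Cd36* (mean 115.9, libraries 132 and 99.9) was nearly level with *Msr1*, and the *Marco* libraries were at 137 and 116. The summed CPM of the 10 receptors stayed between 1868 and 2647 in all libraries. Its makeup changed, with *Cd36*, *Stab1* and *Scarb1* giving 31.8%, 33.6% and 15.8% of the sum in wt cells at M0 and 14.4%, 6.50% and 1.62% at 12 h. *Axl*, *Msr1*, *Marco* and *Mertk* gave 7.86%, 6.79%, 0.150% and 1.61% at M0 and 35.8%, 20.1%, 10.6% and 10.3% at 12 h.

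**Figure D3:**
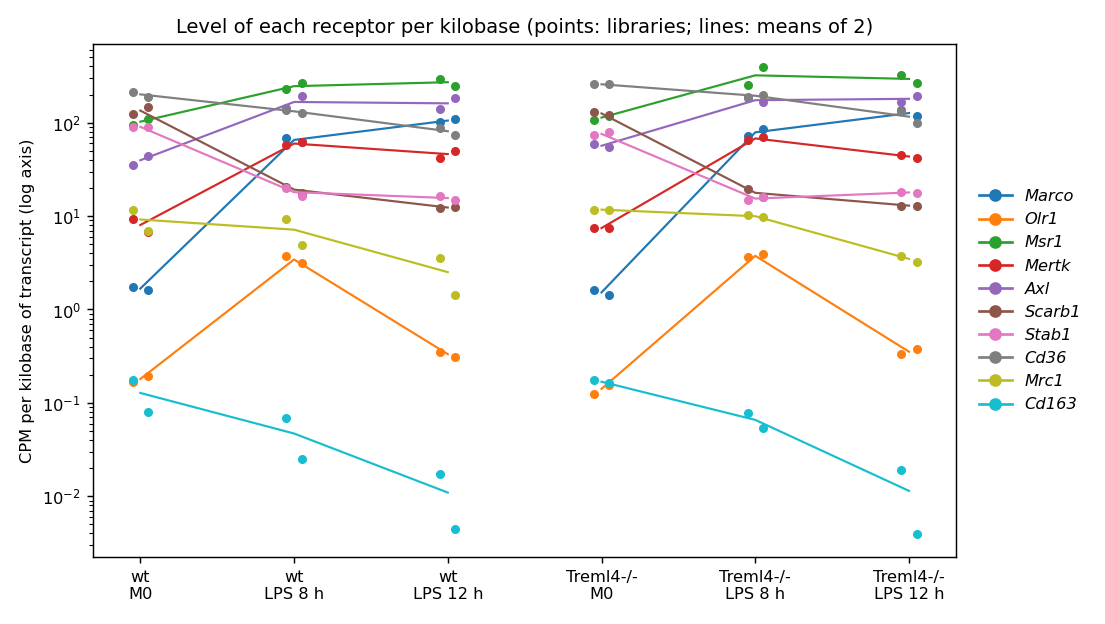
Level of each of the 10 receptors in CPM per kilobase of the main transcript (log axis) in the 6 conditions, with points for single libraries and lines through the means of 2 libraries. *Cd36* leads at M0 and *Msr1* at 12 h, and *Marco* climbs from 1.73 and 1.61 to 101 and 109.7 CPM per kilobase in wt cells.

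Between 8 h and 12 h of LPS, 5 of the 9 tested receptors were called in each genotype, against 31.6% of all tested genes in wt and 32.3% in *Treml4-/-* cells. In each genotype 1 rose and 4 fell, against 14.0% higher and 17.6% lower among all genes in wt and 12.9% higher and 19.4% lower in *Treml4-/-* cells. *Marco* was the receptor that rose further, by 0.68 ± 0.12 in each genotype (limma adjusted p = 0.00069 and 0.00072). *Olr1*, *Mrc1* and *Cd36* fell in both genotypes, where *Mrc1* fell by 1.496 and fell by 1.47 (SE 0.37 each) and *Cd36* fell by 0.71 and fell by 0.76 (SE 0.13 each). *Scarb1* was the remaining call in wt cells (fell by 0.62, limma adjusted p = 0.0017) and *Mertk* in *Treml4-/-* cells (fell by 0.64, limma adjusted p = 0.0027). In the other genotype *Scarb1* had a log2 fold change of -0.44 and *Mertk* of -0.38, with adjusted p under the threshold (0.012 and 0.040) and a fold below 1.4, and the difference of these changes between genotypes was -0.18 with a 95% interval of -0.56 to 0.19 for *Scarb1* and 0.26 with an interval of -0.16 to 0.68 for *Mertk*. *Msr1*, *Axl* and *Stab1* were not called from 8 h to 12 h, with log2 fold changes between -0.20 and 0.22. The call of *Mrc1* was lost in wt cells without replicate 1 of M1-8 h (-1.04, adjusted p = 0.070) or without replicate 2 of M1-12 h (-0.89, adjusted p = 0.067), and in *Treml4-/-* cells without replicate 2 of M1-12 h (-1.38, adjusted p = 0.052).

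Genotypes were compared as wt minus *Treml4-/-*, the comparison that asks whether loss of *Treml4* changes the macrophage. None of the 9 tested receptors was called at M0, M1-8 h or M1-12 h by limma, where 0.0993%, 0.0910% and 0.132% of all tested genes were called, and 3, 2 and 2 receptors had an unadjusted p under 0.05, as did 3.35%, 21.01% and 7.55% of all genes. None was called for the mean over the 3 time points, with 0.414% of all genes called and 3 receptors and 20.1% of all genes at an unadjusted p under 0.05. Limma voom on the reads also called none in these comparisons. *Cd36* stood lower in wt than in *Treml4-/-* cells at each time point with no overlap of libraries, at 727 and 639 against 871 and 880.4 CPM at M0, 467 and 432 against 641 and 679 CPM at 8 h, and 300.3 and 251 against 449 and 339 CPM at 12 h. Its log2 difference was -0.36 ± 0.13 at M0, -0.55 ± 0.13 at 8 h and -0.51 ± 0.13 at 12 h (limma adjusted p = 1.0, 0.13 and 0.27). Over the 3 time points it was -0.47 with a 95% interval of -0.64 to -0.31 (limma adjusted p = 0.022), a 1.39-fold difference that fell short of the 1.4-fold limit. For every receptor, the fit of this mean took the libraries of a genotype as independent, though their titles name only 2 biological replicates. Its intervals and p-values may therefore overstate the replication. Libraries of wt below those of *Treml4-/-* at all 3 time points were found for 306 genes, 2.53% of those tested, and among the receptors for *Cd36*. Without the 3 libraries of wt replicate 2 the *Cd36* difference over the time points was -0.38 (adjusted p = 0.17). It passed 1.4-fold and was called when 1 of 5 other single libraries was left out (replicate 1 of wt at M0, 8 h or 12 h, replicate 1 of *Treml4-/-* at 8 h or replicate 2 of *Treml4-/-* at 12 h), at -0.49 to -0.54. Over all 12 single libraries left out in turn, the *Cd36* value ranged from -0.54 to -0.41. The median over all genes was -0.05, and median of ratios scaling and quantile normalization called no receptor in this comparison.

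**Figure D4:**
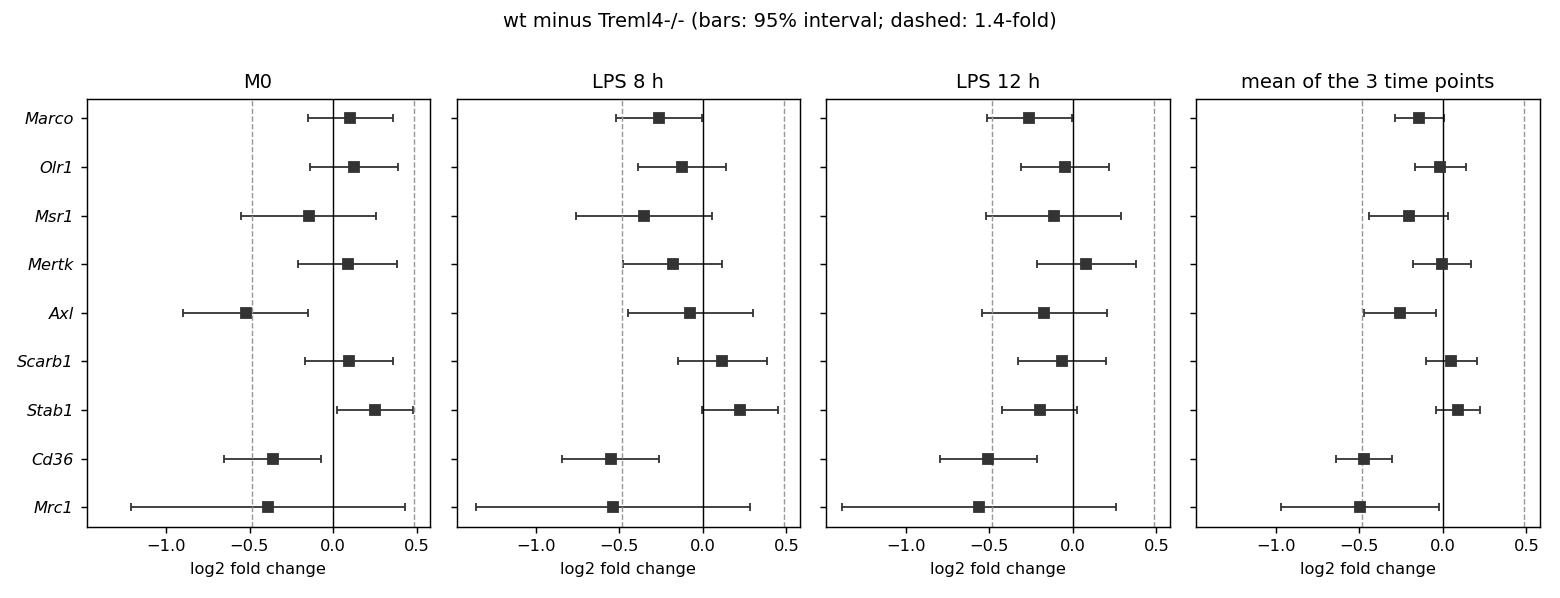
Log2 differences, wt minus *Treml4-/-* (log2(CPM + 1) scale), of the 9 tested receptors at M0, after 8 h and 12 h of LPS and as the mean of the 3 time points, with 95% intervals from limma and dashed lines at 1.4-fold. *Cd36* lies below 0 in all panels, from -0.36 to -0.55 at single time points, and the intervals of *Mrc1* are the widest.

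*Axl* was at 149 and 189 CPM in wt and 249.98 and 233 CPM in *Treml4-/-* cells at M0, without overlap, a log2 difference of -0.52 ± 0.17 (limma unadjusted p = 0.011, adjusted p = 1.0). Its libraries overlapped at 8 h and 12 h, and the mean over the time points was -0.26 ± 0.098 (limma adjusted p = 0.20). Without wt replicate 2 that mean was -0.45 (adjusted p = 0.043, below 1.4-fold). *Stab1* was higher in wt than in *Treml4-/-* cells at M0, at 725 and 719 against 584 and 630.4 CPM, by 0.25 ± 0.10 (limma unadjusted p = 0.033, adjusted p = 1.0). *Marco* was lower in wt cells with no overlap of libraries at 8 h and 12 h, with a difference of -0.26 ± 0.12 each (limma unadjusted p = 0.045 and 0.046, adjusted p = 0.229 and 0.645). *Mrc1* had a mean difference of -0.50 ± 0.21 over the time points (limma unadjusted p = 0.041, adjusted p = 0.24), which was -0.02 ± 0.061 without wt replicate 2 (adjusted p = 0.91). The summed neutrophil markers were lower in wt cells with no overlap at 8 h, as were 33.9% of all genes, and overlapped between genotypes at M0 and 12 h. Mean levels at M0 were 13.5 CPM in wt and 26.8 CPM in *Treml4-/-* cells for *Mpo* and 4.71 and 10.4 CPM for *Elane*. Not every marker was lower in wt cells, with mean *Camp* at 2.31 and 2.01 CPM and *Ngp* at 11.7 CPM in each genotype at 8 h. The part of the neutrophil markers in the differences of *Cd36*, *Axl* and *Mrc1* was not tested. Over all receptors, wt libraries lay below those of *Treml4-/-* at M0 for 3, against 18.0% of all genes, and above for 2, against 10.8%. At 8 h they lay below for 4 and above for 1, against 33.9% and 18.0% of all genes, and at 12 h below for 4 and above for none, against 30.8% and 12.3%. For *Msr1*, *Mertk*, *Olr1* and *Scarb1* the 95% intervals at single time points reached no further than -0.76 and 0.39, and those of *Mrc1* reached -1.38, so differences up to these bounds cannot be told from no difference with 2 replicates. These bounds hold on the log2(CPM + 1) scale, which shrinks differences of *Olr1* at M0 and 12 h, where it was at 1.34 CPM or less. At M0 *Olr1* was higher in wt cells without overlap, with a ratio of mean CPM of 1.27 and a log2(CPM + 1) difference of 0.13. *Msr1* at 8 h was called without replicate 1 of *Treml4-/-* M1-8 h, which leaves the library at 557 CPM against wt libraries at 326 and 375 CPM.

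The LPS effect itself was compared between genotypes as a difference of differences. None of the 9 receptors was called at 8 h or at 12 h by limma or by limma voom, where limma called 0.00827% of all genes (1 gene) in each comparison, and 1 and 2 receptors had an unadjusted p under 0.05, as did 6.67% and 3.82% of all genes. The rise of *Marco* was smaller in wt than in *Treml4-/-* cells, with a difference of -0.37 ± 0.16 at 8 h (limma unadjusted p = 0.047, adjusted p = 0.73) and of -0.36 ± 0.16 at 12 h (unadjusted p = 0.048, adjusted p = 1.0). The fall of *Stab1* at 12 h was larger in wt cells, with a difference of -0.45 ± 0.15 (limma unadjusted p = 0.010, adjusted p = 1.0). For the other receptors the differences lay between -0.27 and 0.44 at 8 h and between -0.18 and 0.35 at 12 h.

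Of 18 related receptors outside the list, 9 passed the filter, and the other 9 (*Scara3*, *Scara5*, *Stab2*, *Scarf2*, *Ager*, *Vldlr*, *Megf10*, *Mrc2* and *Tyro3*, the third TAM receptor) stayed at 0.856 CPM or less. At 8 h, 4 of the 9 rose and 3 fell in each genotype, against 16.3% and 60.6% of all genes in wt and 17.7% and 58.1% in *Treml4-/-* cells. At 12 h, 3 rose and 4 fell in wt cells (16.2% and 60.4% of all genes) and 4 rose and 4 fell in *Treml4-/-* cells (16.1% and 59.6%). *Lrp1*, the large endocytic receptor for apolipoprotein E and proteases, was at 5541 CPM at M0 in wt cells and fell by 2.76 and 2.14 at 8 h and 12 h. *Colec12*, a class A receptor with a collectin domain, fell by 2.20 and 3.23, from 60.6 to 12.4 and 5.60 CPM. *Scarf1*, a class F receptor, rose by 1.398 and 1.201 in wt cells. *Bai1*, which binds phosphatidylserine on apoptotic cells, had 0 reads in both wt M0 libraries and 112 and 132 reads at 8 h. The median log2 fold change of the 9 was 0.21 (wt) and 0.23 (*Treml4-/-*) at 8 h, against -0.74 and -0.70 over all genes. Under the median of ratios 5 rose and 2 fell in each of the 4 comparisons with M0, with a median of 1.05 and 0.98 at 8 h and 0.62 and 0.97 at 12 h.

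All 11 ligands, bridging proteins and sheddases of these receptors were tested. At 8 h, 4 rose and 4 fell in wt cells, where 16.3% of all genes rose and 60.6% fell, and 3 rose and 4 fell in *Treml4-/-* cells (17.7% and 58.1% of all genes). At 12 h, 3 rose and 5 fell in wt cells (16.2% and 60.4%) and 3 rose and 4 fell in *Treml4-/-* cells (16.1% and 59.6%). The median log2 fold change of the list was 0.34 (wt) and 0.09 (*Treml4-/-*) at 8 h, against -0.74 and -0.70 over all genes, and -0.22 and -0.18 at 12 h, against -0.77 and -0.74. It was 1.18 and 0.84 at 8 h under the median of ratios, and its sign turned at 12 h, to 0.65 and 0.64. Under the median of ratios 7 rose and 3 fell in wt cells at 8 h and 6 rose and 4 fell at 12 h, and 7 rose and 4 fell in *Treml4-/-* cells at both. *Gas6*, the bridge between phosphatidylserine and the TAM receptors, was at 56.1 and 56.3 CPM in wt cells at M0, 12.9 and 10.6 CPM at 8 h, and 3.74 and 2.86 CPM at 12 h. It fell by 2.17 at 8 h and by 3.74 at 12 h in wt cells, and by 2.16 and 3.43 without *Treml4*, whereas *Mertk* and *Axl* rose. *Thbs1*, which encodes the CD36 ligand thrombospondin-1, was at 19.9 and 11.2 CPM in wt cells at M0 and at 1915 and 2520.5 CPM at 12 h, and rose by 7.11 in wt and 6.77 in *Treml4-/-* cells. *Hp*, which encodes haptoglobin, the partner of haemoglobin on CD163, rose by 1.67 and 1.99 in wt cells at 8 h and 12 h. *Adam10*, a metalloproteinase that sheds cell surface receptors, fell by 1.94 and 1.87. Neither list had a gene called by limma between genotypes at a single time point, with 1, 2 and 1 of the related receptors and 0, 5 and 2 of the ligands at an unadjusted p under 0.05 at M0, 8 h and 12 h, where 3.35%, 21.01% and 7.55% of all genes had one. For the mean over the 3 time points neither had a call, with 2 and 3 genes and 20.1% of all genes at an unadjusted p under 0.05. In that mean *Colec12* was at -0.42 ± 0.079 (limma adjusted p = 0.042), below 1.4-fold. *Thbs1* was at 0.50 ± 0.12 (limma adjusted p = 0.088), and was called under the median of ratios, at 0.58.

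Of 12 lipid handling genes, all tested, 1 rose and 7 fell at 8 h in each genotype, against 16.3% and 60.6% of all genes in wt and 17.7% and 58.1% in *Treml4-/-* cells. At 12 h, 3 rose and 6 fell in wt cells (16.2% and 60.4% of all genes) and 3 rose and 5 fell in *Treml4-/-* cells (16.1% and 59.6%). *Pparg*, the nuclear receptor that drives *Cd36* transcription, was at 33.6 and 38.2 CPM in wt cells at M0, 0.706 and 0.576 CPM at 8 h, and 0.499 and 0.655 CPM at 12 h, a fall by 4.49 and 4.55. Its partner *Rxra* fell by 3.49 at 8 h and 2.53 at 12 h in wt cells. *Lpl*, the lipoprotein lipase, fell by 1.26 and 2.32 in wt cells, and its fall at 8 h was not called under the median of ratios (-0.41). *Hmox1*, the haem oxygenase that acts after haemoglobin uptake, rose from 553 and 537 CPM at M0 to 7097 and 5788 CPM at 12 h in wt cells, by 3.55. The median log2 fold change of the 12 was -0.79 (wt) and -0.78 (*Treml4-/-*) at 8 h, near that of all genes (-0.74 and -0.70), and -0.48 and -0.28 at 12 h, against -0.77 and -0.74. Under the median of ratios it was 0.02 and -0.06 at 8 h and turned to 0.33 and 0.50 at 12 h. With that scaling 5 rose and 3 fell in wt cells at 8 h and 4 rose and 3 fell in *Treml4-/-* cells, and 6 rose and 3 fell at 12 h in each genotype. No lipid handling gene was called by limma between genotypes at a single time point, with 0, 2 and 5 of the 12 at an unadjusted p under 0.05 at M0, 8 h and 12 h, against 3.35%, 21.01% and 7.55% of all genes. None was called for the mean over the 3 time points, with 4 of the 12 and 20.1% of all genes at an unadjusted p under 0.05. *Lpl* was lower in wt cells in that mean, at -0.44 ± 0.061 (limma adjusted p = 0.0093), a 1.36-fold difference below the 1.4-fold limit.

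**Figure D5:**
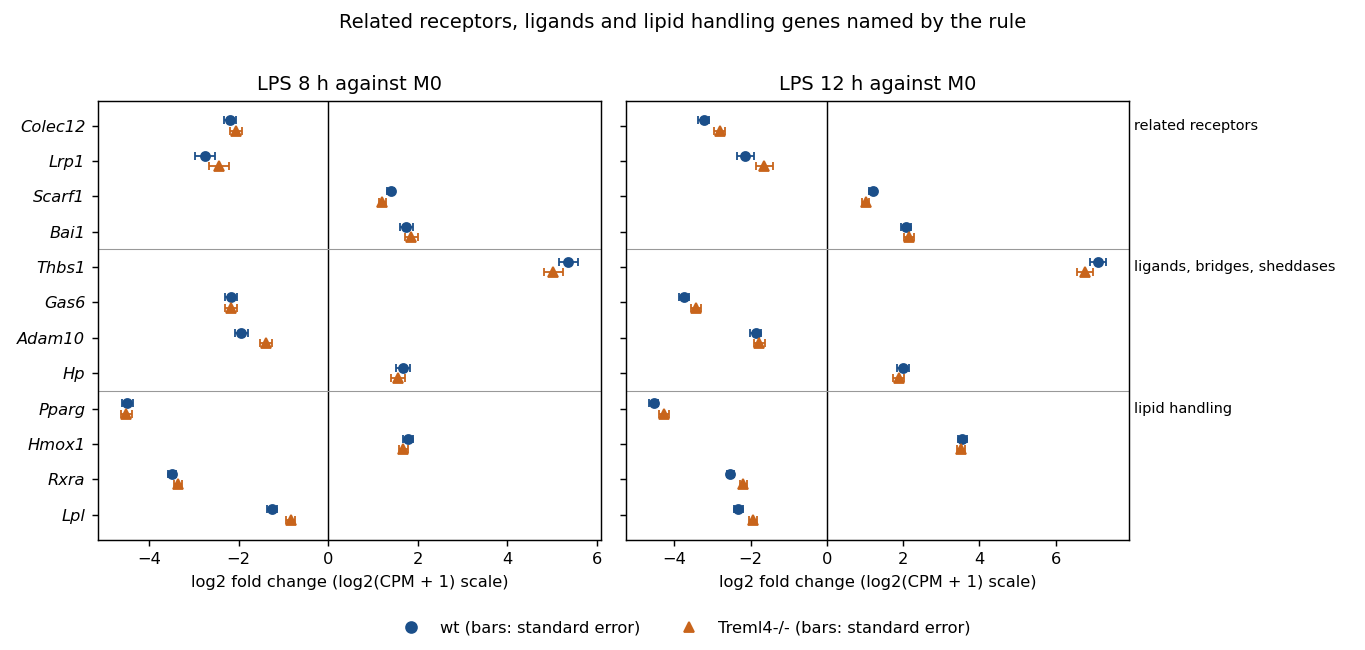
Log2 fold changes (log2(CPM + 1) scale) against M0 at 8 h (left) and 12 h (right) of the 12 named related receptors, ligands and lipid handling genes, in wt (circles) and *Treml4-/-* (triangles) cells, with standard errors. Of the 12, *Thbs1* has the largest rise, by 7.11 in wt cells at 12 h, and *Pparg* the largest fall, in wt cells by 4.55.

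The tested genes with the profile most like each receptor were found by the root mean square difference of log2(CPM + 1), centred on the mean of the gene, over the 12 libraries. The smallest distance of any was that of *Mertk* to *Parp9*, 0.077, and the second neighbour of *Mertk* was *Adprm* at 0.11. *Scarb1* was nearest to *Cmbl* and *Akr7a5* (0.10 each), *Stab1* to *F8a* and *Dapk1* (0.10 and 0.12), and *Cd36* to *Apoo* and *Qpct* (0.12 and 0.15). *Msr1* was nearest to *Gm18853* and *Gm18852* (0.13 each), which the annotation lists as pseudogenes and whose reads may be split with near-identical copies. *Olr1*, with its peak at 8 h, was nearest to *Gpr84* and *Shisa3* (0.15 and 0.23), and *Marco* to *Gm12185* and *Cd274* (0.17 and 0.18). *Axl* was nearest to *Plod2* and *6530402F18Rik* (0.19 and 0.20), and *Mrc1* had the most distant neighbours, *Nqo2* and *Ppfibp1* (0.23 and 0.27).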

How the data were processed

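Poly(A) RNA of 12 BMDM libraries was sequenced on a HiSeq2500. The authors aligned the paired reads with STAR (the submitters' processing notes name mm10), in a workflow that also lists Subread, and deposited log2 CPM values of 43280 genes, which hold a prior of 0.25 reads. Whether the counting used the strand is not given in the sources used here. Whole reads and CPM were recovered from the deposited log2 values (100% of values within 0.01 read), and because the table held log2 CPM and not the CPM the design assumed, the values were first put back to CPM. Log2(CPM + 1) was fitted with limma 3.58.1 (R 4.3.3), with 1 mean for each of the 6 conditions over all 12 libraries and a mean-variance trend. The 12086 genes that reached 1 CPM in 2 or more libraries entered the fit, p-values were adjusted over them by Benjamini-Hochberg, and genes past both 1.4-fold and an adjusted p of 0.05 were called. P-values rest on the spread between samples labelled as biological replicates, shared over the conditions and moderated across genes. The time points of a replicate label were fitted as separate samples. The receptors, gene lists and tests were chosen with earlier results of these data known. In each of the other gene lists all members were counted and the 4 called most often against M0 were named. Pattern neighbours were the 2 nearest tested genes. Positions are from GENCODE M21 (GRCm38), and promoters from RefSeq. The code was checked on simulated data. Alternatives were other pseudocounts, filters, scalings, replicate blocks, limma voom on the recovered reads, leaving out each library and, chosen after seeing the data, leaving out wt replicate 2.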

Additional observations from a re-analysis of the deposited data

Results flagged for a closer look

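The LPS effect differed between genotypes at an unadjusted p under 0.05, by the limma interaction term, for *Marco* and *Stab1*, and in no case after adjustment over all genes. For *Marco* the difference, wt minus *Treml4-/-*, was -0.37 ± 0.16 (SE) at 8 h (adjusted p = 0.729) and -0.36 ± 0.16 at 12 h (adjusted p = 0.999), and both rest on the same M0 libraries, where *Marco* had 146 to 173 reads. For *Stab1* it was -0.45 ± 0.15 at 12 h (adjusted p = 0.999), and the change from 8 h to 12 h differed by -0.42 ± 0.15 (adjusted p = 0.948). In wt cells the *Stab1* libraries overlapped, at 159 and 129.9 CPM at 8 h and 132 and 118 CPM at 12 h. In *Treml4-/-* cells they did not overlap, at 119 and 127 CPM at 8 h and 147 and 140.0 CPM at 12 h. The change of *Stab1* from 8 h to 12 h was called in neither genotype (limma adjusted p = 0.13 in wt and 0.11 in *Treml4-/-* cells).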

How the results depend on the processing

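Over 26 alternative settings, 12 of which left out a library, 1689 of 1729 receptor values kept their direction and call, 15 were reversed, 19 passed the threshold only under the alternative and 6 no longer passed it. These were alternatives to 67 values, those of the LPS comparisons and the genotype values with a limma unadjusted p under 0.05. The other genotype values, which lay nearer to no difference relative to their error, were not counted. Under the median of ratios the 8 h change of *Cd36* was 0.244 in wt and 0.345 in *Treml4-/-* cells, and that of *Mrc1* 0.446 and 0.510. After quantile normalization that of *Mrc1* was 0.144 and 0.158, the 12 h against 8 h change of *Axl* in wt cells 0.0483, and that of *Msr1* in *Treml4-/-* cells 0.0191. Leaving out 1 library gave -0.835 to 0.0775 for *Mrc1* at 8 h in wt cells, and from 8 h to 12 h -0.262 to 0.168 for *Axl* in wt, -0.0518 to 0.146 for *Axl* in *Treml4-/-* and -0.417 to 0.222 for *Msr1* in *Treml4-/-* cells. The *Cd36* fall at 12 h was not called under the median of ratios. From 8 h to 12 h, *Mertk* in wt and *Scarb1* in *Treml4-/-* cells were also called when wt M1-12 h replicate 2 or *Treml4-/-* M1-8 h replicate 2 was left out (-0.50 and -0.59), and *Mertk* in *Treml4-/-* cells was not called after quantile normalization (-0.46). The count of receptors called between genotypes at 8 h ranged from 0 to 1 when a library was left out, with *Msr1* called without *Treml4-/-* M1-8 h replicate 1, where 599 genes were called in place of 11. Over the 3 time points it was 1 (*Cd36*) with no minimum fold change, where 119 genes were called in place of 50, and 0 to 1 when a library was left out. Counts of all genes called ranged over the alternatives from 7 to 220 at M0, 5 to 599 at 8 h, 6 to 79 at 12 h and 17 to 183 over the time points, and from 0 to 3 and 0 to 33 for the differences of the 8 h and 12 h effects. Within a genotype, the differences between replicates 1 and 2 correlated across conditions at 0.062 to 0.41 in wt and -0.27 to 0.46 in *Treml4-/-* cells. These values do not settle whether same-numbered libraries were paired. With a replicate block the counts of receptors called stayed at 8, 7, 8 and 9 of 9 for LPS against M0. They stayed at 5 and 5 for 12 h against 8 h and 0 for genotype. The genes called between genotypes over the time points, 50 in the main fit, were 55 with the replicate number as a block. They were 36 with the replicate within its genotype as a random block. Depth limits *Cd163*, with 1 to 4 reads at 12 h.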
